A study of Mus musculus with 18 samples.

Results

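Enzymes of the prostaglandin pathway were followed in mouse embryonic stem (ES) cells with and without knockdown of HPRT, the purine salvage enzyme hypoxanthine guanine phosphoribosyltransferase, as the cells were led towards dopaminergic neurons. The 7 genes were Ptgs1, Ptgs2, Ptgds, Ptges, Ptgis, Hpgd and Pla2g4a, of 30869 gene symbols on the array, and every probe whose listed symbol equalled one of these names was taken, which gave 11 of 45281 probes. The genes were chosen by a measured value, the log2 fold change of Ptgs1 at the spherical neural mass (SNM) stage, one of the largest rises in knockdown cells there, so the values of all 7 genes in that comparison are given below as a description and without a test. In the SNM comparison Ptgs1 and Ptgds were far higher, Hpgd was higher and Ptgis lower in knockdown cells. At the neuronal stage, on arrays the choice did not use, Ptgs1 and Ptgds rose again in knockdown cells, while Ptges, Ptgis and Hpgd fell.

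The cells were ESD3 (D3), a mouse ES line of strain 129s2/SvPas, and HPRT knockdown cells carried a virally delivered shRNA against HPRT while control cells carried one against luciferase, so both had been infected and selected. ES cells were grown on mouse embryo fibroblast feeder cells with LIF, and RNA was taken from ES cells, from cells that had formed floating neural aggregates (SNM stage) and at the end of dopaminergic differentiation (neuronal stage). RNA of separate cultures of a condition was pooled and hybridised to 3 Illumina mouse arrays, so there were 18 arrays over 6 conditions. All values come from 1 line, and each SD, standard error (SE) and p-value below measures the spread between arrays of a pool and not between cultures. Because whole cultures were measured, more cells of one type and more RNA in each cell cannot be told apart.

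The knocked down gene, listed as Hprt1 on the array, was lower in knockdown cells by 94.1% in ES cells, by 70.5% in SNM and by 95.4% in neuronal cells, on the background-corrected scale. The arrays detected between 18827 and 22202 probes, and no arrays held identical values. RNA of genes of different cell types was measured at the end of differentiation, although the paper found by flow cytometry that nearly all cells of both kinds held tyrosine hydroxylase. Summed background-corrected signals of the 6 neuron genes on the array lay between 7307 and 7658 on control neuronal arrays and between 1277 and 1433 on knockdown neuronal arrays. Summed signals of 6 skeletal muscle genes lay between 51410 and 52020 on control and between 96.8 and 186 on knockdown neuronal arrays, and those of 11 oligodendrocyte genes between 3290 and 3485 on control and between 70200 and 75270 on knockdown neuronal arrays. The part of these differences in the results for the prostaglandin enzymes was not tested.

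Prostaglandins are lipid mediators made from arachidonic acid. Phospholipases A2 such as cytosolic phospholipase A2 (Pla2g4a) release the acid from membranes, the cyclooxygenases COX-1 (Ptgs1) and COX-2 (Ptgs2) turn it into prostaglandin H2, and terminal synthases turn that into prostaglandin D2 (Ptgds, the lipocalin-type synthase), E2 (Ptges) or prostacyclin (Ptgis), after which 15-hydroxyprostaglandin dehydrogenase (Hpgd) inactivates the products. COX-1 is widely regarded as the constitutive and COX-2 as the inducible form, and in the brain Ptgds is a major product of meninges, choroid plexus and oligodendrocytes. In GRCm38.p6, 4 of the 7 genes lie on chromosome 2: Ptgds (chr2:25466709-25470110), Ptges (chr2:30889471-30931020), Ptgs1 (chr2:36216742-36258593) and Ptgis (chr2:167203194-167252150). Pla2g4a (chr1:149829618-149961290) and Ptgs2 (chr1:150100031-150108234) lie near each other on chromosome 1, and Hpgd is on chromosome 8 (chr8:56294552-56321046).

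The sequences just before the start sites of Ptgs1 and Ptgds are shown because these genes rose together, and that of Ptgs2 because it is the other cyclooxygenase and stayed near background after the ES stage. Each is 250 bases, 5′ to 3′ on the strand of the gene, from RefSeq promoters of GRCm38.p6, with matches to a searched motif in capitals. The stretch of Ptgs1 is chr2:36230176-36230425 on the plus strand and lies within the gene's record, downstream of its first start site, that of Ptgds is chr2:25469750-25469999 on the minus strand, also within the gene's record, and that of Ptgs2 is chr1:150099781-150100030 on the plus strand.
Ptgs1: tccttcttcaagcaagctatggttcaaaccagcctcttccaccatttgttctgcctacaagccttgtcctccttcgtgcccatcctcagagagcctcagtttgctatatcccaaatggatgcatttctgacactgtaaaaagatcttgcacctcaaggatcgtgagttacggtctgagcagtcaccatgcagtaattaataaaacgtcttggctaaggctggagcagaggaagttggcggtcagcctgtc
Ptgds: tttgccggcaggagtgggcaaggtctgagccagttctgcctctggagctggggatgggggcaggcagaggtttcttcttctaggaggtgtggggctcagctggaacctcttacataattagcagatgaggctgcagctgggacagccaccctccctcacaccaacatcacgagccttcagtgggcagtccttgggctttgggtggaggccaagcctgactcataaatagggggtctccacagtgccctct
Ptgs2: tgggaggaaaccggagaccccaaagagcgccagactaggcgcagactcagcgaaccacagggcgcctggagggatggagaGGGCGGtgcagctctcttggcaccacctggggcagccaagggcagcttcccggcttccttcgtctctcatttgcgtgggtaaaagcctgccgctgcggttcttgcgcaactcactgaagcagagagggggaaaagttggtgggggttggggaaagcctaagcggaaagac
The motifs were the TATA box TATAAA, the GC box GGGCGG, the forkhead core TGTTTAC, the GLI motif GACCACCC and the CRE core TGACG, searched on both strands. Of 32851 promoter stretches of this length, 12.4% held TATAAA, 32.7% GGGCGG, 3.17% TGTTTAC, 0.703% GACCACCC and 17.8% TGACG. The stretches of Ptgs1 and Ptgds held none of these letters. Ptgs2 had a GC box that began 170 bases before its start site, Ptges had 2 that began 53 and 42 bases before it, and Hpgd had 1 on the opposite strand at 50 bases. A stretch of Pla2g4a (chr1:149922440-149922689) held TATAAA on the opposite strand at 200 bases. Ptgis had no stretch among these promoters and was not searched. The GC content was 48.0% for Ptgs1, 58.4% for Ptgds and 61.6% for Ptgs2, against a median of 52.4% over all stretches.

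**Figure D1:**
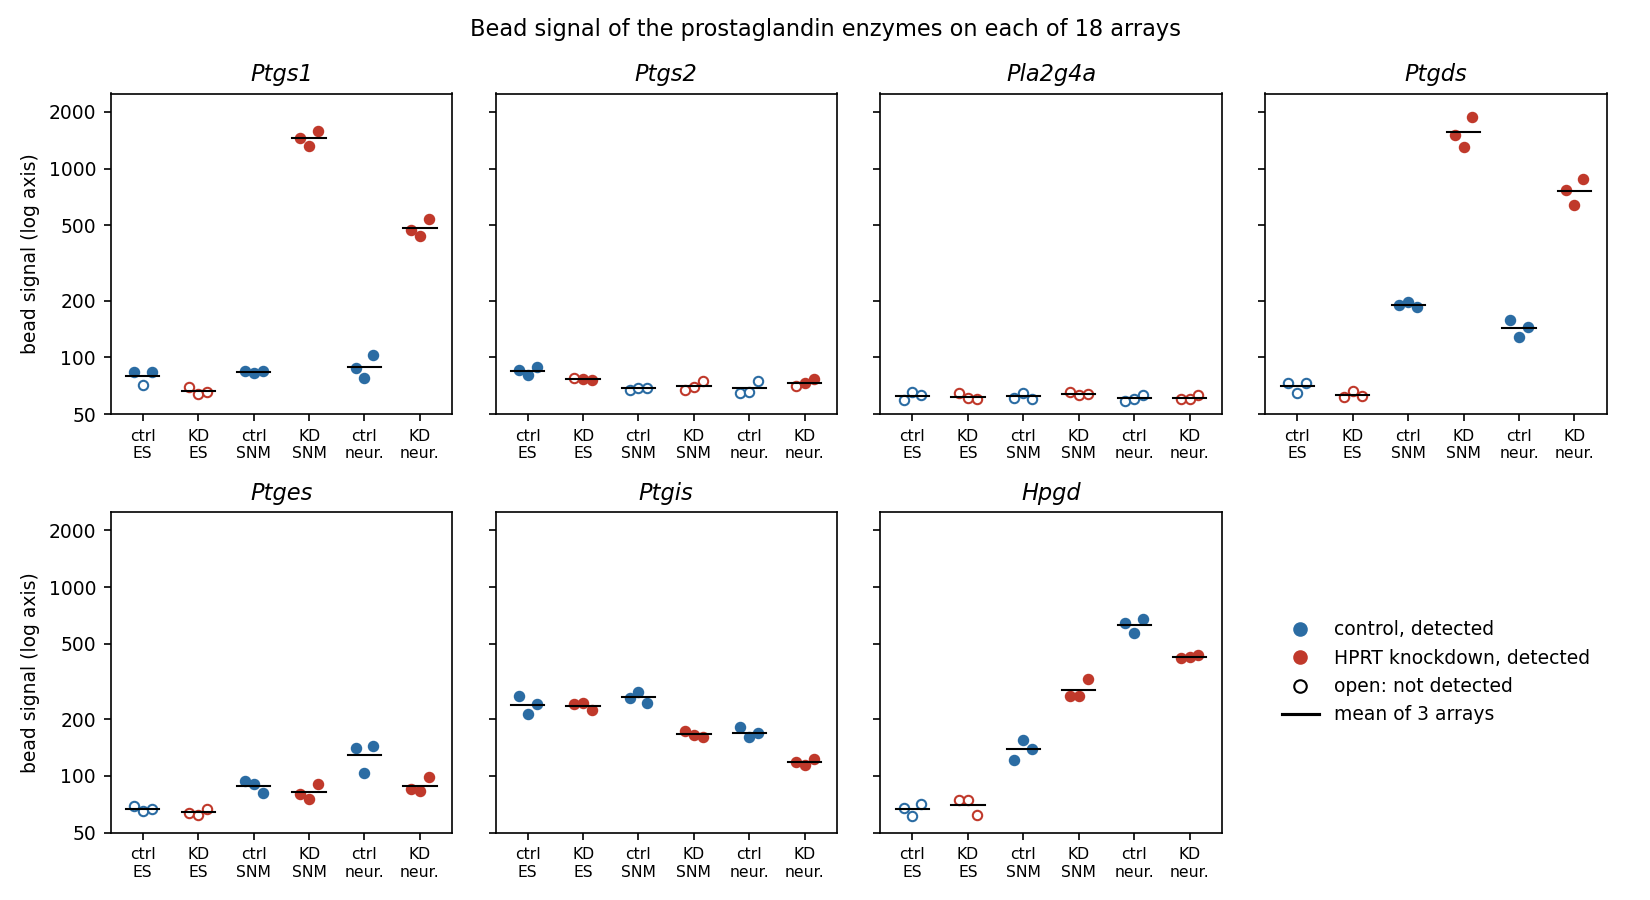
Bead signal (log axis, not background subtracted) of the brightest probe of each of the 7 genes on all 18 arrays, with control arrays in blue, HPRT-knockdown (KD) arrays in red, open circles for arrays on which the probe was not detected (p of 0.05 or more) and lines for the mean of 3 arrays. Ptgs1 and Ptgds stand highest on the knockdown SNM arrays and next on the knockdown neuronal arrays, Hpgd stands highest on the control neuronal arrays, and Pla2g4a is detected on none.

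Ptgs1, which makes the prostaglandin H2 used by all synthases, was close to background in every condition but the knockdown SNM and neuronal cells. At the ES stage its brightest probe (ILMN_1224866) gave bead signals of 84.2, 71.6 and 83.4 in control cells, where 2 of 3 arrays detected it at a detection p under 0.05, and 69.4, 64.2 and 65.5 in knockdown cells, where no array did. At the SNM stage the signals were 85.0, 83.1 and 84.3 in control and 1451, 1315 and 1581 in knockdown cells. At the neuronal stage they were 87.6, 77.7 and 103 in control and 475, 437 and 540.2 in knockdown cells. The knockdown arrays of the last 2 stages lay apart from all the other arrays, and control arrays of the 3 stages overlapped from one stage to the next.

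After background correction and quantile normalization, the log2 signal of Ptgs1 was 10.47 ± 0.04 (SD, n = 3 arrays) in knockdown SNM cells and 8.72 ± 0.10 in knockdown neuronal cells. It was 5.27 ± 0.20 in control neuronal, 5.14 ± 0.07 in control SNM and 5.08 ± 0.22 in control ES cells, whose arrays overlapped, and 4.43 ± 0.03 in knockdown ES cells. In neuronal cells Ptgs1 was 10.97-fold higher in the knockdown than in the control pool, with 3.45 ± 0.10 as its log2 fold change (SE, adjusted p = 6.87e-14 from limma). The log2 fold change was 5.33 at the SNM stage, where it had been used for the choice. At the ES stage Ptgs1 was under the detection filter in both cell types and was not tested, with a log2 fold change of -0.65 ± 0.10 and control and knockdown arrays that did not overlap.

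The other probes of Ptgs1 showed smaller changes. ILMN_1233864 gave log2 signals of 4.69 ± 0.14 in control and 8.26 ± 0.13 in knockdown SNM cells, and of 4.71 ± 0.03 in control and 6.68 ± 0.21 in knockdown neuronal cells. ILMN_1239239 was detected on no control array, and its log2 signal was 7.76 ± 0.06 in knockdown SNM and 6.25 ± 0.16 in knockdown neuronal cells. In neuronal cells the log2 fold change of ILMN_1233864, which 1 of 3 control arrays detected, was 1.97 ± 0.14 (SE). Both ILMN_1233864 and ILMN_1239239 passed the filter only through the knockdown arrays, so no p-value is given for either. The rise of ILMN_1239239 was at least 2.90-fold when measured against the lowest detected signal of the control arrays. The 3 probes thus gave the same direction and different sizes, with a log2 fold change of 2.41 for the gene when they were averaged, undetected control values included.

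**Figure D2:**
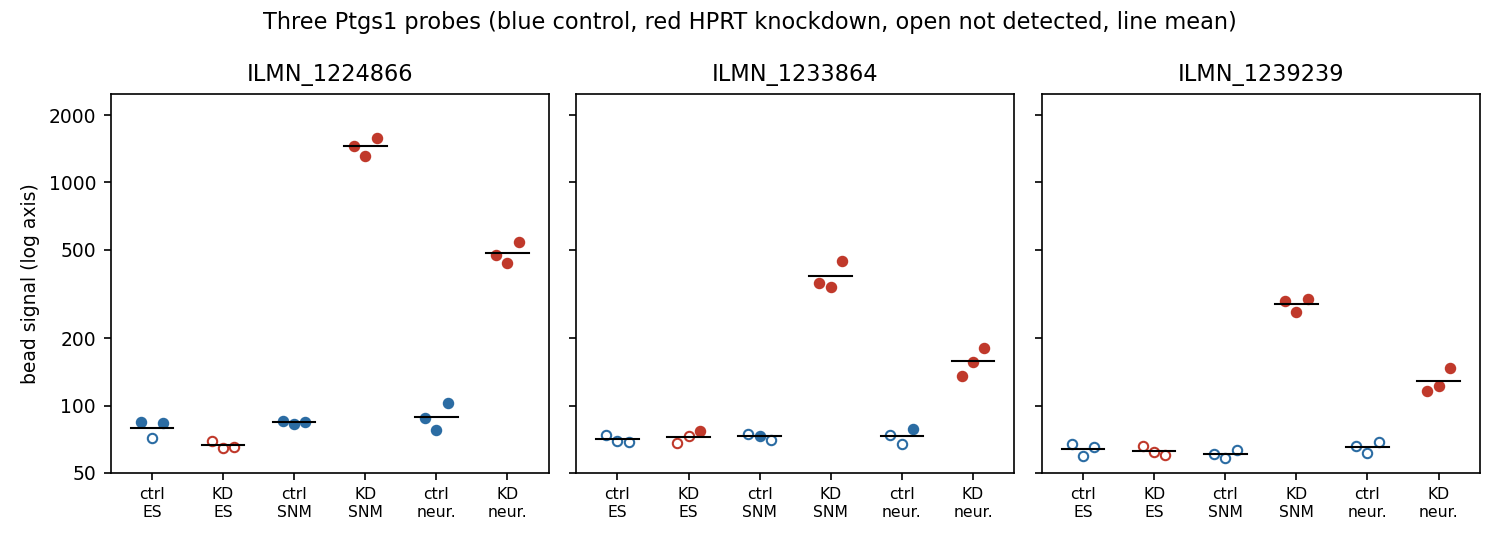
Bead signal (log axis) of the 3 probes of Ptgs1 on each array by condition (ctrl, control; KD, HPRT knockdown; neur., neuronal stage), with open circles for arrays without detection and lines for the mean of 3 arrays. All 3 probes were detected on all 6 knockdown arrays of the SNM and neuronal stages, with the SNM arrays higher than the neuronal ones.

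Ptgs2, the inducible cyclooxygenase, showed no such rise. Its brighter probe (ILMN_1231600) gave signals of 85.9, 81.2 and 88.5 in control ES and 77.9, 76.8 and 76.1 in knockdown ES cells, and between 64.8 and 76.6 on the 12 later arrays. It was detected on 7 of 18 arrays, 5 of them at the ES stage, and the other probe (ILMN_2717913) on none. At the ES stage the knockdown arrays lay below the control arrays, with a log2 fold change of -0.46 ± 0.08 (SE), which is under the 1.5-fold minimum for a call. The brighter probe passed the filter there only through the control arrays, so no p-value is given. At the SNM and neuronal stages Ptgs2 was under the detection filter and was not tested. Pla2g4a, the phospholipase most often linked to this pathway, gave signals between 59.0 and 65.8 and was detected on none of the 18 arrays by its only probe (ILMN_2606027), which does not show that the transcript was absent.

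Ptgds, the lipocalin-type prostaglandin D synthase, was undetected at the ES stage and had its highest levels in the same 2 conditions as Ptgs1. Its signals (ILMN_1248316) were 73.2, 65.0 and 73.1 in control ES and 61.7, 66.7 and 62.1 in knockdown ES cells. They were 189, 196 and 185 in control SNM and 1514, 1308 and 1877 in knockdown SNM cells, which is 3.53 on the log2 scale after normalization. They were 158, 128 and 146 in control neuronal and 767, 641 and 886 in knockdown neuronal cells. Unlike Ptgs1, Ptgds was well above background in control cells after the ES stage, and its normalized arrays of the 4 later conditions did not overlap. Its ES signals overlapped between the cell types before normalization. The log2 signal was 10.58 ± 0.15 in knockdown SNM, 9.45 ± 0.19 in knockdown neuronal, 7.04 ± 0.07 in control SNM and 6.45 ± 0.11 in control neuronal cells. In neuronal cells Ptgds was 8.01-fold higher in the knockdown than in the control pool (log2 fold change 3.00 ± 0.10, SE, adjusted p = 1.94e-13 from limma).

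Ptges, the inducible microsomal prostaglandin E synthase, moved the other way at the neuronal stage. Its brighter probe (ILMN_2786442) was detected on no ES array and gave 139.8, 103 and 145 in control neuronal against 85.0, 83.0 and 98.2 in knockdown neuronal cells, which did not overlap. The log2 signal fell from 6.19 ± 0.23 to 5.32 ± 0.14, a log2 fold change of -0.87 ± 0.14 (SE, adjusted p = 4.82e-05 from limma). The other probe (ILMN_2616028) gave -0.60 ± 0.18. It passed the filter only through the control arrays and was detected on 1 knockdown array, so no p-value is given. At the SNM stage the 2 cell types overlapped, at 94.6, 90.2 and 81.3 in control and 79.9, 75.1 and 90.7 in knockdown cells.

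Ptgis, prostacyclin synthase, was the only one of the 7 genes that was detected on all 18 arrays. Its signals (ILMN_2724942) were 264, 213 and 239.8 in control ES and 241, 243 and 223 in knockdown ES cells, and the arrays overlapped (log2 difference -0.11 ± 0.10, with a limma adjusted p of 0.545). They were 260.0, 279 and 244 in control SNM and 174, 164 and 161 in knockdown SNM cells, a normalized log2 difference of -0.89. They were 181, 159.8 and 168 in control neuronal and 118, 114 and 123 in knockdown neuronal cells, a normalized log2 difference of -0.71 ± 0.10 (SE, adjusted p = 1.41e-05 from limma). The knockdown cells were therefore below the control cells on all arrays of the later 2 stages.

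Hpgd, the enzyme that inactivates prostaglandins, was undetected at the ES stage and changed in opposite directions at the later stages. Its signals (ILMN_2649199) were 121, 155 and 139 in control SNM and 266.0, 266 and 325 in knockdown SNM cells, a normalized log2 difference of 1.37. They were 643, 569 and 679 in control neuronal and 423, 426 and 437 in knockdown neuronal cells. The log2 signal thus stood at 9.13 ± 0.08 in control and 8.52 ± 0.07 in knockdown neuronal cells, a log2 fold change of -0.61 ± 0.11 (SE, adjusted p = 0.000182 from limma), which is a 1.53-fold fall, close to the 1.5-fold minimum.

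**Figure D3:**
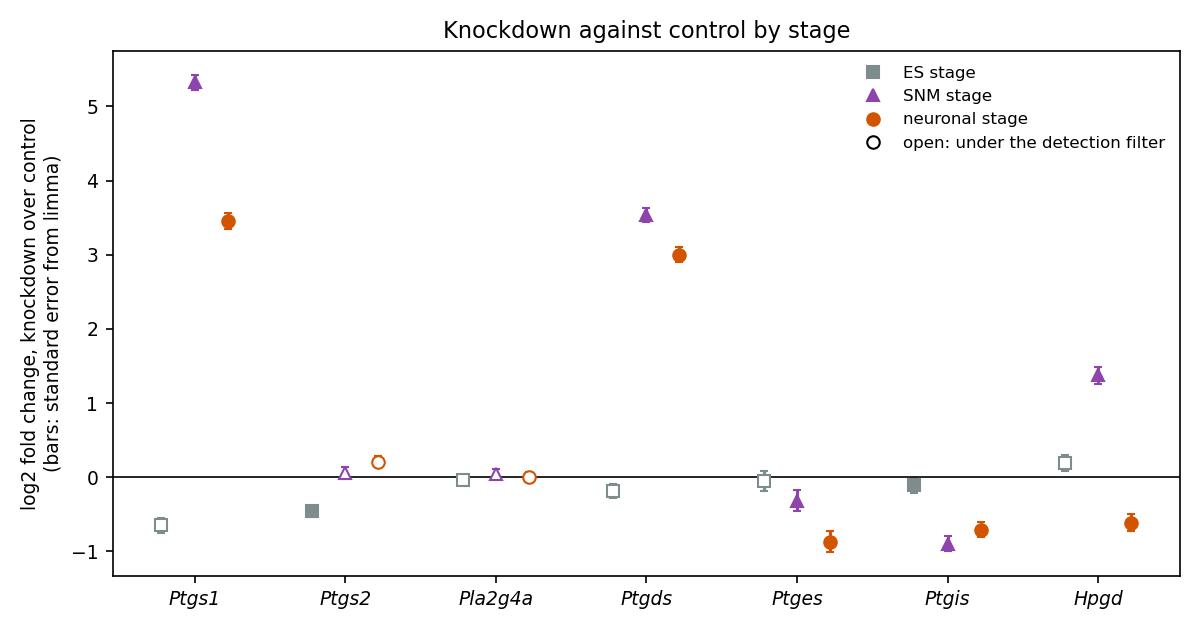
Log2 fold change of knockdown over control cells for the brightest probe of each gene at the ES, SNM and neuronal stages, with the SE from limma as bars and open symbols for probes under the detection filter. Ptgs1 and Ptgds lie at 3.45 and 3.00 at the neuronal stage, where Ptges, Ptgis and Hpgd lie between -0.87 and -0.61.

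In neuronal cells 5 of the 7 genes were tested, all of which had been detected on all 3 arrays of both cell types, and 2 were called higher (Ptgs1, Ptgds) and 3 lower (Ptges, Ptgis, Hpgd). Over the whole array 13.9% of 20893 tested probes were called higher and 13.5% lower at this stage. At the ES stage 1.68% of 18411 tested probes were called, and of the 2 genes tested (Ptgs2, Ptgis) limma called 0, with 1 at an unadjusted p under 0.05 and 0 by the methods' t-test. At the SNM stage, where nothing can be read from the count, 3 of the 7 genes were past the thresholds for higher (11% of 20765 probes) and 1 for lower (8.9%). With 3 arrays against 3, an exact permutation test of a single gene cannot give a two-sided p below 0.1, so no such test was used.

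The effect of the knockdown was then compared between the neuronal and ES stages with an interaction term, whose estimate takes no SNM mean, although the spread and the normalization were shared by all 18 arrays. The difference of the log2 fold changes (neuronal minus ES) was 4.10 ± 0.14 (SE) for Ptgs1 and 3.18 ± 0.14 for Ptgds. It was 0.67 ± 0.11 for Ptgs2, which was detected on no control neuronal array. Ptgs2 passed the filter only through the control ES arrays, where it was highest, so no p-value is given. For Ptges (-0.81 ± 0.19), Hpgd (-0.80 ± 0.16) and Ptgis (-0.60 ± 0.14, adjusted p = 0.00247 from limma) the difference was negative. Ptgs1, Ptgds, Ptges and Hpgd passed the filter only through the neuronal arrays, so no p-value is given for them. Their ES values were at or near background, so their differences largely repeat the neuronal comparison. Of the 6 genes tested, limma called 3 in each direction, against 13.6% of 22480 probes higher and 13% lower. Ptgs2 is among the 3 called higher, although only its control ES arrays passed the filter. The calls went from 6 to 3 with quantile normalization alone, to 2 with 75th-percentile scaling and to 2 with a 2-fold minimum, and Ptgis lost its call in 8 of 18 alternatives. These differences rest in part on undetected values and their sizes are not exact: no ES array detected Ptgds, Ptges or Hpgd, and no knockdown ES array detected Ptgs1, whose untested ES value of -0.65 enters the 4.10.

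From the ES to the neuronal stage the enzymes changed in both cell types. In control cells Ptgds, Ptges and Hpgd were called higher at the neuronal stage and Ptgs2 and Ptgis lower, against 27.8% of 21451 probes called higher and 33.4% lower. Ptgs2 passed the filter only through the ES arrays and was at least 1.60-fold lower at the neuronal stage. Ptgds, Ptges and Hpgd passed the filter only through the neuronal arrays, so they are given as bounds: control cells held at least 2.98-fold more Ptgds, 2.50-fold more Ptges and 19.2-fold more Hpgd at the neuronal than at the ES stage. Ptgs1 differed little in control cells (a log2 difference of 0.19 ± 0.10, with a limma adjusted p of 0.0898), and its sign turned to -0.14 with 75th-percentile scaling. In knockdown cells Ptgs1, Ptgds, Ptges and Hpgd were called higher and Ptgis lower, against 30% of 21132 probes higher and 33.7% lower. The bounds there were at least 13.8-fold for Ptgs1, 22.8-fold for Ptgds, 1.31-fold for Ptges and 12.05-fold for Hpgd. Ptgis fell by 1.07 on the log2 scale in control cells (adjusted p = 4.37e-08) and fell by 1.66 in knockdown cells (adjusted p = 1.21e-10, both from limma).

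The rest of the pathway was followed with a list of 56 other genes, of which 55 were on the array, 31 were detected on all 3 arrays of at least 1 condition and 14 on no array. Of the 10 genes listed under receptors, 9 were on the array and 1 passed the filter. That gene, the prostaglandin E2 receptor Ptger3, had log2 signals of 7.35 ± 0.05 in control and 6.72 ± 0.10 in knockdown cells before differentiation (difference -0.63 ± 0.10, limma adjusted p = 0.00118) and of 5.80 ± 0.18 and 5.16 ± 0.23 in neuronal cells (-0.63 ± 0.10, adjusted p = 6.66e-05). In SNM cells it was not called and the order was the other way, at 4.69 ± 0.03 in control cells, where no array detected it, and 5.06 ± 0.08 in knockdown cells. The prostaglandin D2 receptors Ptgdr and Ptgdr2 (listed as Gpr44) and the receptors Ptger4 and Ptgfr were detected on no array.

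Among the terminal synthases outside the 7 genes, 6 of 7 were tested at each stage. In neuronal cells 1 fell, the prostamide and prostaglandin F synthase listed as 2810405K02Rik (log2 signal 7.95 ± 0.08 in control and 7.19 ± 0.04 in knockdown cells, adjusted p = 2.05e-07 from limma), and 5 were not called. The aldose reductase Akr1b3, which can make prostaglandin F2α, fell at the SNM stage from 11.10 ± 0.05 to 10.14 ± 0.16 (adjusted p = 2.24e-08 from limma). The other prostaglandin E synthases were not called at any stage. Ptges2 had log2 signals of 6.99 ± 0.16 in control and 6.61 ± 0.13 in knockdown neuronal cells, and Ptges3 of 9.98 ± 0.04 and 9.57 ± 0.03. The haematopoietic prostaglandin D synthase, listed as Ptgds2, was detected on no array.

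Of 19 phospholipases and related genes, 10 were tested at the SNM stage, where 3 were called lower, and 8 at the neuronal stage, where 2 rose and 2 fell. The secreted phospholipases Pla2g1b and Pla2g10 fell at both stages, with log2 fold changes of -1.11 ± 0.29 and -0.64 ± 0.07 in SNM cells. In neuronal cells Pla2g1b, which 1 knockdown array detected, changed by -1.42 ± 0.29, and Pla2g10, which no knockdown neuronal array detected, was at least 2.67-fold lower. Both passed the filter there only through the control arrays, so no p-value is given. The calcium-independent phospholipase Pla2g6 fell at the SNM stage (-0.60 ± 0.13) and rose at the neuronal stage (0.65 ± 0.13, adjusted p = 0.000345 from limma), and Pla2g3 rose at least 2.09-fold at the neuronal stage. Slco2a1, the transporter that takes prostaglandins up into cells, was lower in knockdown cells at the ES stage (7.35 ± 0.09 against 8.05 ± 0.09, adjusted p = 0.00148 from limma) and higher at the neuronal stage (6.78 ± 0.18 against 5.40 ± 0.10, adjusted p = 5.55e-08).

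In the neighbouring lipoxygenase and leukotriene branch 6 of 15 genes were tested at the neuronal stage, and 1 rose and 2 fell. Alox5, which starts leukotriene synthesis, rose at least 4.23-fold in knockdown neuronal cells and fell at least 1.46-fold in knockdown SNM cells, where no array detected it. In neuronal cells Mgst3 had log2 signals of 10.03 ± 0.08 in control and 9.21 ± 0.07 in knockdown cells (difference -0.82, limma adjusted p = 9.61e-08). The leukotriene B4 receptor Ltb4r1 stood at 5.52 ± 0.09 in control and 4.68 ± 0.15 in knockdown neuronal cells (difference -0.85). Only 1 knockdown array detected Ltb4r1, which passed the filter there through the control arrays alone, so no p-value is given for it. Over the whole list 0 genes were called higher and 2 lower of 27 tested in ES cells, 0 and 5 of 26 in SNM cells, and 4 and 6 of 25 in neuronal cells. Over all probes tested 0.516% were called higher and 1.17% lower in ES cells, 11% and 8.9% in SNM cells, and 13.9% and 13.5% in neuronal cells, and the counts of the single groups of enzymes stand against the same shares. The tested genes of the list had a median log2 difference of -0.03 in ES, -0.20 in SNM and -0.36 in neuronal cells, against 0.01, -0.04 and 0.01 over all probes tested. The limma counts of 0 in ES and SNM cells stand beside 1 and 4 genes that were higher at an unadjusted p under 0.05, and the methods' t-test also called 0 higher in each.

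The genes whose levels over the 18 arrays were most like those of the brightest Ptgs1 probe were sought among 16271 symbols, as a description. The highest correlations (Pearson r over 18 arrays that share the 6 conditions and the normalization) were those of 1700026L06Rik (0.989), F13a1 (0.983), Nkx2-1 (0.982), Efcab1 (0.980) and Cd109 (0.978). Nkx2-1, a homeobox factor of the ventral forebrain, had log2 signals of 4.70 ± 0.07 in control and 10.72 ± 0.03 in knockdown SNM cells, and of 4.93 ± 0.10 and 7.69 ± 0.01 in neuronal cells. Like Ptgs1, all 5 had their highest mean in knockdown SNM cells and their next highest in knockdown neuronal cells, which follows from how they were picked. Among the 7 enzymes the correlation with Ptgs1 was 0.935 for Ptgds, 0.537 for Hpgd, 0.104 for Ptges, -0.323 for Ptgs2 and -0.727 for Ptgis. The conditions fell in the same order of level for Ptgs1 and Ptgds but for the control SNM and control neuronal cells, which changed places. The control arrays of Ptgs1 overlapped between stages and its SNM value had been used for the choice, so this order is a description only.

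Marker genes of cell types that the cultures could hold were set beside these values. The 7 floor plate genes were all called higher in knockdown cells at the SNM stage and 5 of 6 tested at the neuronal stage, and their summed background-corrected signals lay between 542 and 585 in control and between 3576 and 3964 in knockdown SNM cells, and between 459 and 464 in control and between 2007 and 2056 in knockdown neuronal cells. The signalling protein Shh had log2 signals of 5.65 ± 0.16 and 10.80 ± 0.19 in control and knockdown SNM cells and of 6.30 ± 0.13 and 8.91 ± 0.14 in neuronal cells, with a correlation with Ptgs1 of 0.977 over the 18 arrays. Foxa2, another gene of the list, gave 0.140. Other lists were also higher in knockdown SNM cells. The summed signals of 6 astrocyte genes lay between 11990 and 13670 in control and between 16840 and 17690 in knockdown SNM cells, with 3 of 6 called higher there, and with 4 of 6 called higher and 1 lower at the neuronal stage. In SNM cells those of 8 smooth muscle and pericyte genes lay between 694 and 743 in control and between 2280 and 2359 in knockdown cells, and those of 6 skeletal muscle genes between 940.0 and 958 and between 1818 and 2080. The sums of both muscle lists stood lower in knockdown than in control neuronal cells, where all 6 skeletal muscle genes were called lower and the smooth muscle sums lay between 6903 and 6969 against 15720 to 16780. Acta2 made up most of the smooth muscle sums at both stages. Of 5 genes of that list tested, 2 were called higher in SNM cells, and 1 higher and 2 lower of 5 in neuronal cells. Cspg4 went against the sums, at 5.53 against 5.74 in control SNM and 6.51 against 5.33 in control neuronal cells. The part of these lists in the rise of Ptgs1 and Ptgds was not tested.

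**Figure D4:**
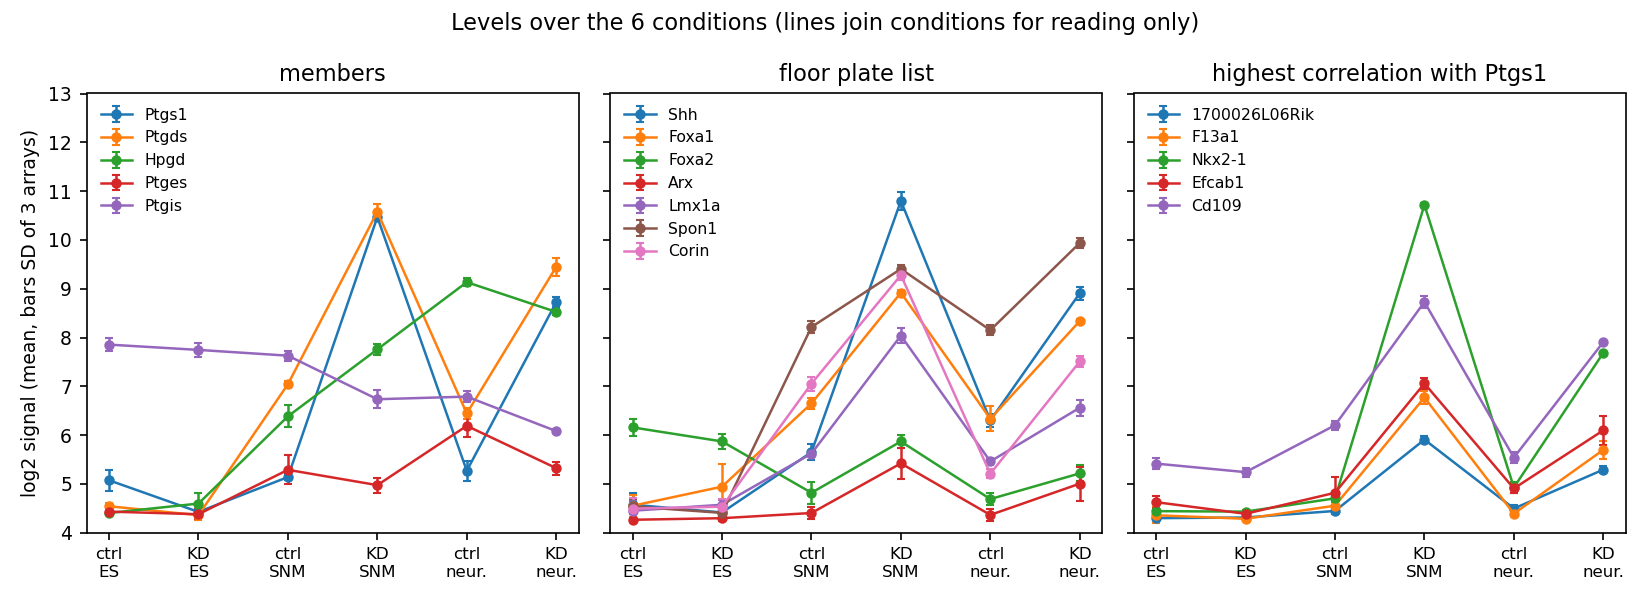
Mean log2 signal (bars, SD of 3 arrays) over the 6 conditions for 5 of the enzymes, the 7 floor plate genes and the 5 genes with the highest correlation with Ptgs1. Ptgs1, Ptgds and Shh all reach between 10.47 and 10.80 in knockdown SNM cells and are lower in knockdown neuronal cells, while Hpgd is highest in control neuronal and Ptgis in control ES cells.

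Genes of blood-derived cells, in which COX-1 is well known, were mostly undetected. Of 14 microglia and macrophage genes, 2 were detected on all 3 arrays of knockdown SNM cells and 10 on none, and C1qa, C1qb, C1qc, Cx3cr1, Itgam, Trem2 and Tyrobp were detected on none of the 18 arrays. Summed signals of that list were between 104 and 122 in control and between 98.2 and 114 in knockdown SNM cells. Among platelet genes, Itga2b had log2 signals of 4.56 in control and 5.11 in knockdown SNM cells, and of 5.24 and 5.27 in neuronal cells. Gp1bb had 4.84 in control and 4.69 in knockdown SNM cells, and 4.72 and 5.62 in neuronal cells, while Gp6, Ppbp and Treml1 were detected on no array. F13a1, named above and on none of these lists, had 4.55 in control and 6.77 in knockdown SNM cells, and 4.39 and 5.70 in neuronal cells. Of 6 mast cell genes, 1 (Kit, which ES cells also express) was detected on all 3 arrays of any condition.

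Lists of the cells known to make much Ptgds were read in the same way. The 11 oligodendrocyte genes had summed signals between 15750 and 16260 in control and between 10720 and 11560 in knockdown SNM cells, with 7 of 10 tested called lower, whereas all 11 were called higher in knockdown cells at the neuronal stage. The 10 genes of fibroblasts and meninges had summed signals between 7073 and 7647 in control and between 7828 and 9567 in knockdown SNM cells, with 3 called higher and 1 lower of 9 tested. At the neuronal stage their sums were between 24310 and 27960 in control and between 12940 and 16350 in knockdown cells, with 8 of 10 called lower. The 7 genes of choroid plexus and ependyma had overlapping sums at the SNM stage (1472 to 1860 in control and 1630 to 2015 in knockdown cells), with 2 of 6 tested called higher and Otx2 making up most of the sum, and sums of 840.3 to 1003 in control and 1601 to 1657 in knockdown cells at the neuronal stage. In knockdown SNM cells Ttr stood at 8.51 against 5.64 in control cells, and Folr1 at 5.48 against 4.40, where no control array detected it. Aqp1 was lower there, at 7.97 against 8.54, and Otx2 (10.09 against 10.22) and Clic6 (6.88 in both) differed little. In knockdown neuronal cells Aqp1 stood at 10.09 against 8.11 in control cells and Otx2 at 7.73 against 8.53, with 2 genes of the list called higher and 1 lower of 5 tested. The part of these lists in the levels of Ptgds was not tested.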

How the data were processed

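The members and all gene lists were chosen with earlier results of these data known. The authors hybridised 3 arrays per pooled RNA of each condition and deposited the average bead signal intensity per probe, with no background subtracted and no scaling, and a detection p-value. A second deposited table, whose 72 columns of per-sample values are named by chip and position and could not be matched to samples, gave only gene symbols. Signals were background-corrected, quantile-normalized and put on a log2 scale with neqc (offset 16) of limma 3.58.1 in R 4.3.3, and the 18 arrays entered 1 limma model of the 6 conditions. Tested probes were those with a detection p under 0.05 on every array of at least 1 of the conditions compared, and calls needed a Benjamini-Hochberg adjusted p under 0.05 over all probes tested and a change of at least 1.5-fold. All tests were two-sided. The brightest probe stood for a gene. The named genes were the 7 members, pathway genes called or always detected, and the 5 symbols with the highest correlation with Ptgs1. Where no array of a condition detected a probe, its fold is a lower bound against the lowest detected signal of each array or its own signal, whichever was higher. The number of arrays limits the precision. The model was tested on simulated data. Knockdown and control arrays of equal title number varied together in part at the SNM stage (correlations of their deviations 0.486, 0.108 and 0.489) and the neuronal stage (0.606, 0.094 and 0.325). At the ES stage they hardly did (-0.094, 0.025 and 0.096). Alternatives were other normalizations, filters, thresholds, a replicate block, the methods' t-test and leaving out each array. The authors' RNA-Seq data were not analysed here.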

Additional observations from a re-analysis of the deposited data

Results flagged for a closer look

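By the interaction term of the limma model, the difference between knockdown and control cells was called as changed between the neuronal and ES stages for 6 of the 7 genes. Over the whole array 26.7% of 22480 tested probes were called, and fewer of the 7 genes were called under other settings given below. Ptgs2, among these 6, passed the filter only through the control ES arrays, where it was highest. Ptgs1, Ptgds, Ptges and Hpgd passed it only through the neuronal arrays. The difference of log2 fold changes (neuronal minus ES) was 4.10 for Ptgs1, 3.18 for Ptgds and 0.67 for Ptgs2, and it was -0.81 for Ptges, -0.60 for Ptgis and -0.80 for Hpgd. The sizes are not exact, because no ES array detected Ptgds, Ptges or Hpgd, no knockdown ES array detected Ptgs1 and no control neuronal array detected Ptgs2. All 4 conditions were single RNA pools, so the difference holds between pools. No group had the 4 or more arrays needed to look for an outlying array.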

How the results depend on the processing

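The neuronal rises of Ptgs1 (log2 fold change between 2.41 and 3.57) and Ptgds (between 2.44 and 3.11) stayed called under every alternative run, and at the SNM stage the value of Ptgs1 lay between 4.06 and 5.36. Without background correction the 3 falls there stayed negative but under 1.5-fold. So 2 members were called in place of 5 with quantile normalization and with 75th-percentile scaling, and also with a 2-fold minimum, and under these 3 settings the calls of the stage difference went from 6 to 3, 2 and 2. Hpgd at the neuronal stage was also under 1.5-fold without control neuronal replicate 3 (-0.58) or knockdown neuronal replicate 3 (-0.57). At the ES stage 1 member was called in place of 0 with no detection filter (Ptgs1) and with no minimum fold (Ptgs2), and leaving out 1 array gave between 0 and 1, the latter without control ES replicate 2. The change of Ptgs1 from the ES to the neuronal stage in control cells turned from 0.19 to -0.14 with 75th-percentile scaling. In the stage difference Ptgis was under the thresholds in 8 of 18 alternatives. The replicate block changed no count of called members. Without background correction (quantile normalization) probes called at the neuronal stage numbered 3704 against 5732, at the SNM stage 2328 against 4127 and at the ES stage 58 against 310. Pathway genes called at the neuronal stage were then 2 higher against 4, and at the ES stage 0 lower against 2. The limits are a single RNA pool per condition, 1 cell line, and signals near background for Ptgs2, Ptges and control Ptgs1, where fold changes are compressed.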
